A study of Homo sapiens with 18 samples.

Results

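The comparison described here set ribosome footprints from the cytosolic fraction of UFSP2-KO cells against those of unedited HEK293 cells (WT). HEK293 is an established human embryonic kidney line, and UFSP2-KO is a clonal HEK293 line made with Cas9 and the guide sgUFSP2. The libraries were taken by their titles: 2 from UFSP2-KO and 2 from WT, marked a and b, which makes 4 of the 18 libraries in the series. The series also holds the membrane fractions and whole-cell mRNA of both lines, and all 3 kinds of library from UFM1-KO, another clonal Cas9 line made with sgUFM1. All lines were grown in DMEM with 10% FBS, and no drug treatment is given in the labels. The cytosol was the digitonin extract of the cells, and the membrane fraction was the Triton extract of the pellet left behind. UFSP2-KO was 1 clone, so the knockout cannot be told apart from other differences between that clone and the WT cells. The labels do not say that a and b came from separate cultures, so the p-values measure only the spread between libraries marked a and b, which may be technical. In the main tests of footprints alone, that spread was estimated over all 12 footprint libraries, not over these 4.

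UFM1 is a small ubiquitin-like protein that enzymes attach to lysines of other proteins, and UFSP2 is a protease that matures UFM1 and takes it off its targets. A main target is RPL26, which belongs to the large subunit of the ribosome and lies near the exit of the peptide tunnel, and the modification is known above all from ribosomes bound to the endoplasmic reticulum. Ribosome profiling digests the mRNA that ribosomes do not cover and sequences the protected footprints, so that the count on a coding sequence follows both the amount of the mRNA and how many ribosomes sit on it; the cytosolic fraction holds mainly ribosomes that are not docked to that membrane.

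The deposited counts are given per transcript, and entries with the same counts in every footprint library were merged into 1 transcript feature. Of 14377 such features, 11065 had enough counts over the 12 footprint libraries to be tested. A feature could pass through the membrane or UFM1-KO libraries, so some had few or no counts in the 4 cytosol libraries compared. Shares of the 11065 features therefore include features that could hardly be called here. With the filter and the model on the 4 compared libraries alone, 8532 features were tested. The sources used here do not pair these transcript IDs with gene names. Features are therefore given by ID, coding length and values, and neither the knockouts nor the identity of the line was checked in the counts. Coding length here is a deposited length without a header, read as codons. What it covers is not stated, so it may be shorter than the full coding sequence. How reads shared between near-identical copies of a gene were assigned is unknown, so values of single transcripts are uncertain in that respect. A feature is not a gene, since isoforms of 1 gene can be separate features that share reads. The deposited counts, summed over all entries, came to 1393032 and 6666021 in WT libraries a and b and to 1587853 and 5383754 in UFSP2-KO libraries a and b. Levels are given in CPM, that is, counts relative to the library's sum over the tested features after TMM scaling. That sum, with merged entries counted once, was 916711 and 4331549 in WT libraries a and b. In UFSP2-KO libraries a and b it was 1023426 and 3399256. For the 7797 features that averaged at least 10 CPM over all 12 footprint libraries, the SD of the log2 difference between the libraries of a group was 0.68 in WT and 0.624 in UFSP2-KO. The deeper libraries of the 2 lines, both marked b, differed from each other by an SD of 0.632, and the shallower ones, both marked a, by 0.811. Over these features, WT library b thus lay no farther from UFSP2-KO library b than from its own replicate. The SD also depends on depth, and both b libraries were deeper than the a libraries. It therefore does not show that the lines are as alike as replicates. All values are relative to the library, so that fewer ribosomes on the mRNA of every gene and fewer cells in the extract cannot be told apart.

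Between UFSP2-KO and WT cytosol, 442 of 11065 features (3.99%) were called, at an adjusted p under 0.05 by the quasi-likelihood test of edgeR, with p-values adjusted after Benjamini and Hochberg. Of these, 165 (1.49% of all tested) had more footprints in UFSP2-KO and 277 (2.5%) had fewer. An unadjusted p under 0.05 was found for 2104 features (19%). The number of calls was sensitive to single libraries and to the tool: it was 170 without WT library b, 245 without UFSP2-KO library b, 274 without UFSP2-KO library a, 249 with DESeq2 and 294 with only the 4 compared libraries in the model. Both UFSP2-KO libraries lay above both WT libraries for 2425 features (21.9%) and below both for 2503 (22.6%), so that features whose groups do not overlap were nearly as frequent in one direction as in the other. The lower calls outnumbered the higher ones in the main test, with 37.3% of calls higher. That share was 47.8% with RLE size factors, 65% after the trend along coding length was removed, and 61.2% without UFSP2-KO library b, so which direction held more calls depended on the processing.

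**Figure D1:**
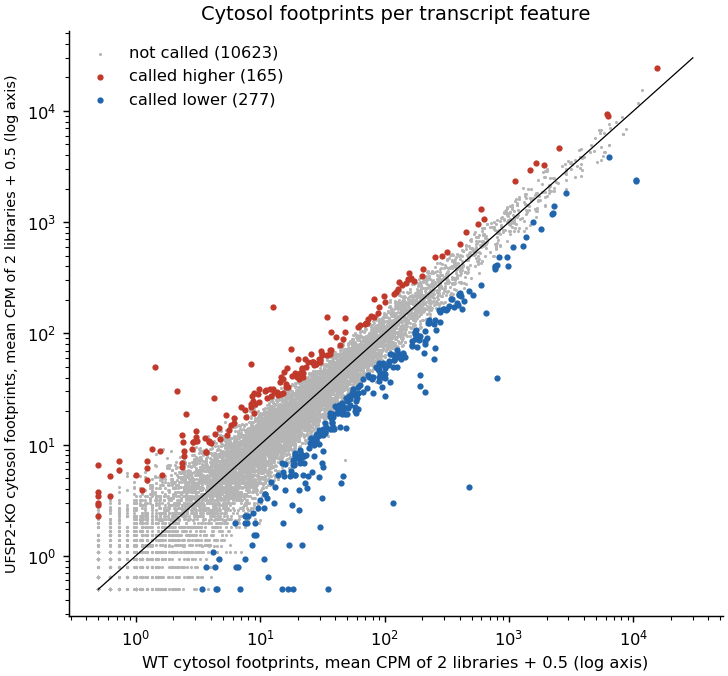
Mean CPM, with a small constant added so that 0 can be drawn, of cytosol footprints in WT (x axis, log scale) against UFSP2-KO (y axis, log scale) for the 11065 tested features, with 1 point a feature. The 165 features called higher and the 277 called lower are coloured, and most other features lie along the diagonal.

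Most of the called changes were moderate. The median log2 change was 1.23 among the 165 higher calls and -1.27 among the 277 lower calls, beside 0.02 over all tested features. More than 2-fold changes were seen for 117 of the higher calls and 206 of the lower ones, more than 4-fold for 34 and 59, and more than 16-fold for 10 and 16. The smallest called change was 0.52 on the log2 scale upward and 0.65 downward. Some features had no count at all in a line: 6 higher calls were at 0 in both WT libraries, with a mean of 1.77 to 6.05 CPM in UFSP2-KO, and 8 lower calls were at 0 in both UFSP2-KO libraries, with a mean of 2.88 to 34.6 CPM in WT. The fitted change of such a feature depends on the prior count. With these features set at the bound that 3 counts a library allow, the medians were 1.18 and -1.26. Without them the changes reached 5.05 upward and -7.13 downward.

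The calls' share of the tested counts moved with them, as the choice of these features on the same libraries requires. The features called higher held 4.68% and 4.66% of the tested counts in WT libraries a and b, and 7.79% and 8.06% in UFSP2-KO. The features called lower held 8.1% and 7.67% in WT, and 3.35% and 3.32% in UFSP2-KO. Features that share reads can each count them, so these shares need not give the size of the changed part of the translated mRNA. The shares were not tested.

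The transcripts with the largest changes, among those with a mean of at least 10 CPM and no overlap between the groups, were ENST00000371697.3 and ENST00000311208.11 upward and ENST00000457894.4 and ENST00000503431.4 downward. ENST00000371697.3, with a coding length of 299 codons, had 0 and 1.84 CPM in WT libraries a and b and 44.4 and 53.7 CPM in UFSP2-KO. Both UFSP2-KO libraries were far above both WT libraries, and the log2 change was 5.05 (SE 0.45; edgeR adjusted p = 4.14e-08). With WT library b left out, the remaining WT library had no count and the fitted change became 10.09, so its size, though not its call, rested on the 8 counts of that library. ENST00000311208.11, of 412 codons, was at 0.999 and 2.3 CPM in WT, against 31.1 and 29.1 CPM in UFSP2-KO. Here too the groups were well apart, with a log2 change of 3.86 (SE 0.44; edgeR adjusted p = 2.45e-06).

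ENST00000457894.4, a feature of 4 merged entries with 163 codons, had 31 and 38.2 CPM in WT and no count in either UFSP2-KO library. Against the floor of 3 counts a library it was at least 19.5-fold lower in UFSP2-KO (edgeR adjusted p = 3.98e-08). ENST00000503431.4, a feature of 2 merged entries with 203 codons, had 419 and 531 CPM in WT. In UFSP2-KO it had 4.44 and 2.94 CPM, from 5 and 10 counts. It was well expressed in WT and nearly gone in UFSP2-KO, with a log2 change of -7.13 (SE 0.39; edgeR adjusted p = 2.42e-12). All 4 transcripts kept their direction under each of the 12 alternative settings tried. They were chosen as the largest changes in these same libraries, so this is no independent support.

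The same 4 transcripts changed the same way in the membrane fraction and in mRNA. These are separate libraries but of the same lines, and the membrane extract came from the pellet left by the cytosol extract. They therefore cannot tell the knockout apart from other differences between the clone and WT. ENST00000371697.3 had 2.04 and 1.67 CPM in the WT membrane libraries against 40.3 and 46.9 CPM in UFSP2-KO. Its mRNA was at 8.26 and 1.56 CPM in WT against 294 and 259 CPM in UFSP2-KO. Its log2 change was 4.59 (SE 0.39; edgeR adjusted p = 5.34e-09) in membrane footprints and 5.83 (SE 0.5; edgeR adjusted p = 1.53e-06) in mRNA. ENST00000311208.11 had 1.75 and 0.445 CPM in WT mRNA and 216 and 150 CPM in UFSP2-KO mRNA. Its log2 change in mRNA was 7.41, beside 3.32 in membrane footprints and 3.86 in the cytosol. The mRNA of this transcript thus differed by more than its cytosol footprints in the fitted values, but that difference of -3.48 (SE 0.8) did not pass the test (edgeR adjusted p = 0.258).

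ENST00000457894.4 was also close to 0 in the other UFSP2-KO libraries. It had 0 and 1 counts in the UFSP2-KO membrane libraries and 1 and 3 counts in UFSP2-KO mRNA, against 39.6 and 35.7 CPM in WT membrane footprints and 16.6 and 21.4 CPM in WT mRNA. ENST00000503431.4 had 345 and 343 CPM in the WT membrane libraries and 6.82 and 0.796 CPM in UFSP2-KO. In mRNA it had 147 and 129 CPM in WT and 3.06 and 4.08 CPM in UFSP2-KO, a log2 change of -5.29 (SE 0.25; edgeR adjusted p = 1.97e-09). The loss of footprints on both transcripts therefore came with a loss of their mRNA counts.

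**Figure D2:**
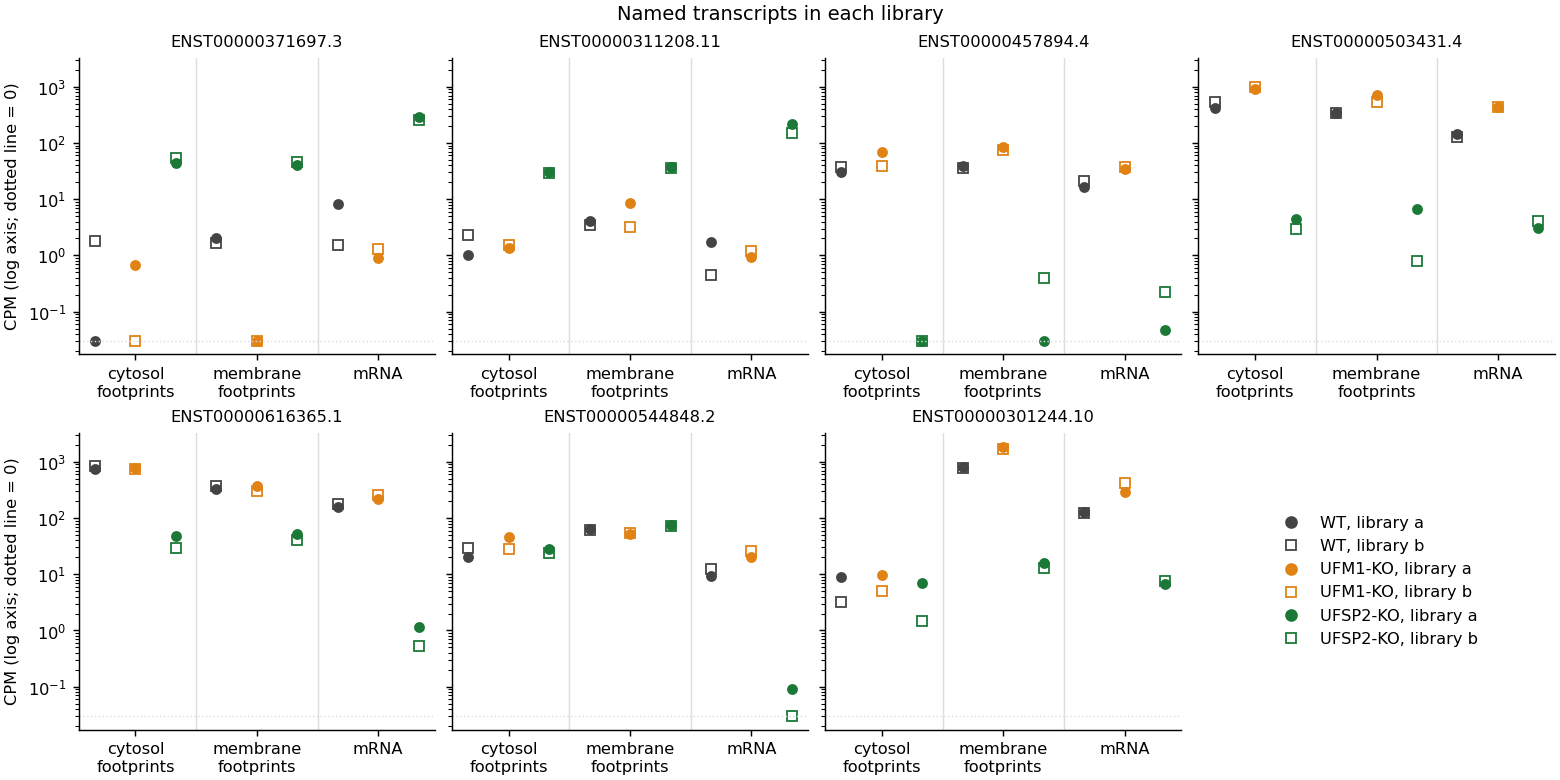
CPM (y axis, log scale, with 0 drawn on the dotted line) of the 4 transcripts with the largest changes and the 3 called for a difference between readouts, in cytosol footprints, membrane footprints and mRNA of WT, UFM1-KO and UFSP2-KO (colours), with filled points for library a and open squares for library b. ENST00000503431.4 has 419 and 531 CPM in WT cytosol against 4.44 and 2.94 CPM in UFSP2-KO, and stays low in UFSP2-KO membrane footprints and mRNA.

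Near-complete losses and gains were counted over the 11065 tested features, with the same limits on both sides. Of these, 6 features were under 2 CPM in both UFSP2-KO libraries and at 10 CPM or more in both WT libraries. The reverse was seen for 1 feature, ENST00000371697.3. All 6 were called lower in the cytosol, in the membrane fraction and in mRNA, where their log2 changes ran from -10.96 to -3.51. In UFM1-KO cytosol the 6 features lay between 15.1 and 70.6 CPM in every library, so their absence was not shared by the other knockout line. The difference in number between losses and gains was not tested, and isoforms of 1 gene can be separate features. ENST00000503431.4, at 4.44 and 2.94 CPM in UFSP2-KO cytosol, was above the limit for this count.

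The features called in the cytosol moved the same way in the other libraries of the same lines far more often than features at large. These sets were not matched by level. The higher and lower calls had medians of 29.9 and 37.2 CPM in the 4 cytosol libraries, beside 14 CPM over all features. Among the 165 higher calls, 157 (95.2%) had more membrane footprints in UFSP2-KO, against 51% of all tested features, and 86 (52.1%) were also called higher there, against 5.24% of all tested features. Among the 277 lower calls, 271 (97.8%) had fewer membrane footprints, against 48.9% of all features, and 208 (75.1%) were called lower, against 5.89%. No cytosol call was called in the opposite direction in the membrane fraction. The median change in membrane footprints was 0.75 for the higher calls and -1.13 for the lower calls, smaller in both directions than in the cytosol, where the features were selected.

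Whole-cell mRNA gave the same picture with fewer calls. Of the 157 higher calls with an mRNA value, 143 (91.1%) had more mRNA in UFSP2-KO, against 53.5% of all features, and 55 (35%) were called higher, against 2.74% of the 10824 tested features with an mRNA value. Of the 268 lower calls with an mRNA value, 257 (95.9%) had less mRNA, against 46.5%, and 106 (39.6%) were called lower, against 4.88%. None was called in the opposite direction. The median mRNA change was 0.6 for the higher calls and -0.7 for the lower ones, again smaller than the footprint changes that chose them. Across the features that averaged at least 10 CPM in the 4 cytosol libraries, the log2 change in the cytosol correlated with that in the membrane fraction at a Pearson's r of 0.749 over 6454 features and with that in mRNA at 0.652 over 6331 features. Over all tested features, those with few counts included, r was 0.479 with the membrane fraction (11065 features) and 0.427 with mRNA (10824 features). These r values are across features, which are not independent replicates, and the 3 readouts share the 2 cell lines.

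**Figure D3:**
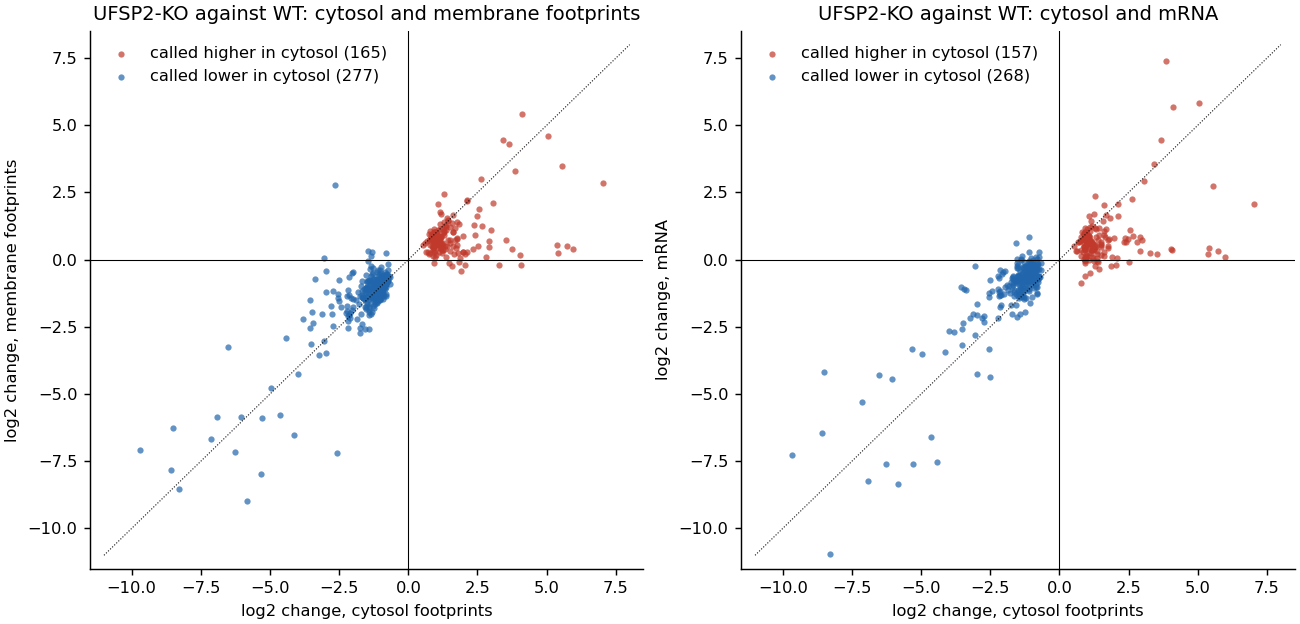
Log2 change of UFSP2-KO against WT in cytosol footprints (x axis) against membrane footprints (left, y axis) and mRNA (right, y axis), with 1 point a feature and the cytosol calls coloured. Of the 277 lower calls, 271 lie below 0 in membrane footprints, and of the 165 higher calls 157 lie above 0.

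By combination, 43 higher calls and 94 lower calls were also called in the same direction in both the membrane fraction and mRNA. A further 42 higher and 108 lower calls were called in the membrane fraction but not in mRNA, and 12 and 12 were called in mRNA but not in the membrane fraction. The calls shared by all 3 readouts had the larger changes among the lower features, with a median cytosol log2 change of -1.64. Another 60 higher and 54 lower calls were called in neither. These last had median cytosol changes of 1.29 and -1.21, but medians of 0.41 and -0.63 for membrane footprints, and 0.39 and -0.42 for mRNA. An effect past the threshold in the cytosol and not elsewhere is not shown to differ between readouts, and the tests of that difference follow.

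Whether footprints changed by another amount than mRNA was tested in a joint model of all 18 libraries. Of 12619 features, 2 (0.0158%) were called, both with a higher change in footprints than in mRNA and 0 with a lower one. The filter took all 18 libraries, so a feature could pass on its mRNA counts with few cytosol footprints. Even the difference of -3.48 (SE 0.8) for ENST00000311208.11 was not called. A feature that was not called is thus not shown to change by the same amount in both. An unadjusted p under 0.05 was found for 870 features (6.89%). DESeq2 called 12 and the test without a filter on low counts 17. Leaving out WT mRNA library a gave 16 calls, UFSP2-KO cytosol library b 12, WT cytosol library a 8 and UFSP2-KO mRNA library b 6. Both called transcripts are named because they were the only calls, outside the rule for the largest changes. ENST00000544848.2, of 109 codons, had cytosol footprints at 20 and 28.8 CPM in WT, against 28.4 and 23.8 CPM in UFSP2-KO, so the groups overlapped (log2 change -0.03, SE 0.27; edgeR adjusted p = 0.981). In mRNA it had 9.19 and 12.6 CPM in WT, but 2 and 0 counts in UFSP2-KO. Footprints were thus counted on this transcript where almost no mRNA was counted for it, and the difference of the 2 changes was 7.27 (SE 0.63; edgeR adjusted p = 4.81e-08).

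ENST00000616365.1, of 116 codons, fell in both readouts. Its cytosol footprints were at 747 and 841 CPM in WT, against 48.8 and 29.7 CPM in UFSP2-KO (log2 change -4.42, SE 0.26). Its mRNA was at 157 and 180 CPM in WT and 1.16 and 0.529 CPM in UFSP2-KO, a log2 change of -7.54. The footprints fell less than the mRNA, with a difference of 3.16 (SE 0.41; edgeR adjusted p = 0.000128).

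Whether the cytosol change differed from that of the membrane fraction was tested as an interaction over the 12 footprint libraries. Of 11065 features, 1 (0.00904%) was called, in the direction of a higher change in the cytosol, and 0 in the other. Features with few cytosol counts are among those tested, and a feature that was not called is not shown to change alike in both fractions. An unadjusted p under 0.05 was found for 487 features (4.4%). DESeq2 called 2 and the test without a filter 7, and leaving out WT cytosol library a gave 9 and UFSP2-KO cytosol library b 4. The called transcript, ENST00000301244.10, has 232 codons and was named for being the only call. Its membrane libraries gave 816 and 780 CPM for WT and 15.9 and 13.1 CPM for UFSP2-KO, a log2 change of -5.79 (SE 0.32). In the cytosol its counts were near the limit of the depth, with 9 and 14 counts in WT and 8 and 5 in UFSP2-KO. Its log2 change there was -0.59 (SE 0.61; edgeR adjusted p = 0.642), and the difference between the fractions was 5.2 (SE 0.8; edgeR adjusted p = 0.00791). That call ended without UFSP2-KO cytosol library a (4.19, edgeR adjusted p = 0.8) and without WT cytosol library b (4.22, edgeR adjusted p = 0.0743).

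The share of features called rose with the footprint level. It was 1.37% among the 3002 features under 5 CPM (21 higher and 20 lower), 2.73% from 5 to 10 CPM, 4.68% from 10 to 100 CPM, 8.98% from 100 to 1000 CPM and 10% among the 180 features above 1000 CPM. Small changes are more easily called at high counts. Above 1000 CPM the 8 higher calls had log2 changes of 0.52 to 1.06, and the 10 lower calls had -2.18 to -0.65. All 8 higher calls and 9 of the 10 lower calls were also called the same way in the membrane fraction. The shares over all tested features, at any level, were 5.24% and 5.89%. In mRNA 5 and 3 were called the same way, beside 2.74% and 4.88%. The most abundant called feature, of 442 codons, was at 14800 and 16200 CPM in WT, against 22600 and 26400 CPM in UFSP2-KO (log2 change 0.66, SE 0.16; edgeR adjusted p = 0.0143). The most abundant lower calls were 2 features of 621 codons, each with 11000 and 10100 CPM in WT. In UFSP2-KO one was at 2200 and 2610 CPM and the other at 2140 and 2520 CPM, with log2 changes of -2.13 and -2.18. Their near-equal counts may be those of transcripts that share most of their reads, which was not tested, so the 2 features may hold 1 signal. Another 2 of the lower calls above 1000 CPM, both of 83 codons, were also near-equal. They had 2240 and 2210 CPM and 2280 and 2210 CPM in WT. The 10 lower calls may thus hold fewer separate signals.

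**Figure D4:**
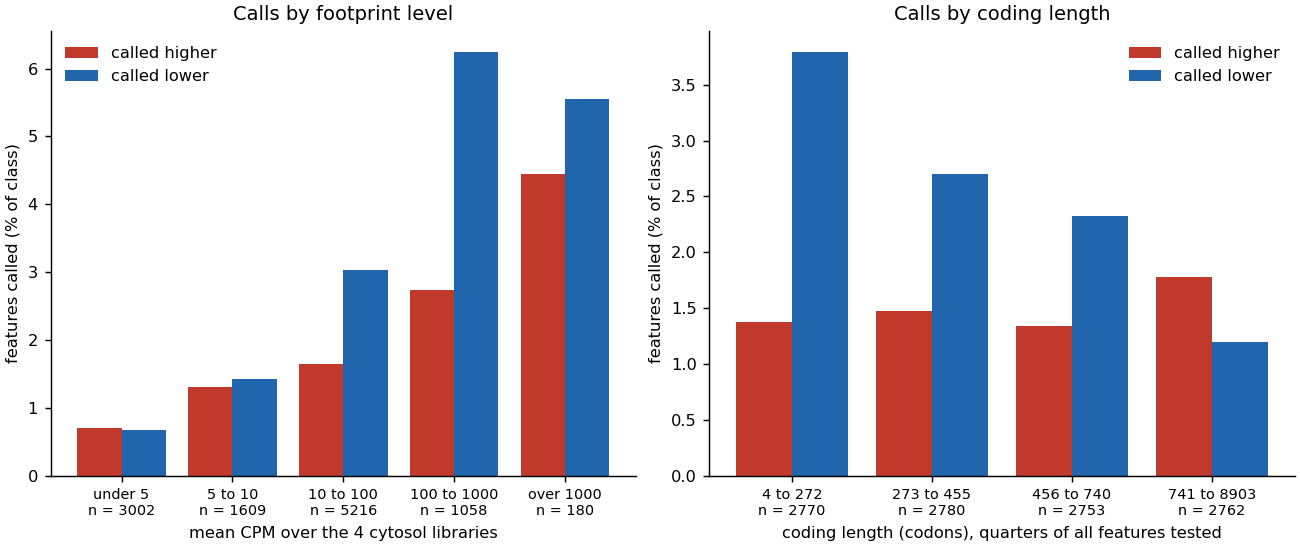
Percent of tested features called higher and lower (y axes) by mean CPM of cytosol footprints (left, x axis) and by class of coding length (right, x axis). The share of lower calls falls from 3.79% in the shortest class to 1.19% in the longest, while the share of higher calls lies between 1.34% and 1.77%.

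Transcripts called lower were shorter than features at large. Their median coding length was 351 codons, beside 467 among the higher calls and 455 among all tested features. The log2 median of the lower calls less that of all features was -0.374, and -0.172 after the trend along coding length was removed. Lengths were not compared at matched footprint levels. In 4 classes of coding length with near-equal numbers of features (4 to 272, 273 to 455, 456 to 740 and 741 to 8903 codons), 105 (3.79%), 75 (2.7%), 64 (2.32%) and 33 (1.19%) features were called lower, and 38 (1.37%), 41 (1.47%), 37 (1.34%) and 49 (1.77%) were called higher. The median log2 change over all features of a class went the same way in footprints: -0.058, 0, 0.034 and 0.107 for the cytosol, and -0.153, 0.015, 0.052 and 0.129 for membrane footprints. In mRNA it went the other way, at 0.142, 0.09, 0.018 and -0.101. The lower calls remained shorter than all features in the median under each of the 12 alternatives, by -0.577 to -0.133 on the log2 scale, while the longer median of the higher calls did not hold in 4 of them.

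No difference in the shares of the libraries' counts on short and long transcripts passed a test. The class of shortest transcripts held 46.2% and 46.6% of the counts in WT libraries a and b and 46.2% and 44.6% in UFSP2-KO, or 46.4% ± 0.27 against 45.4% ± 1.2 (SD, n = 2 each; two-sided exact permutation p = 0.667). The class of longest transcripts held 13.1% and 12.2% in WT and 13.6% and 13.6% in UFSP2-KO, or 12.6% ± 0.66 against 13.6% ± 0.002 (SD, n = 2 each; two-sided exact permutation p = 0.333). With 2 libraries a group the smallest exact permutation p is 0.333, so this test could not pass 0.05.

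Features enriched at the membrane were counted too thinly in the cytosol for their share of the calls to be read as a result. A membrane class was taken from the UFM1-KO libraries as the features whose footprints were over 2-fold higher at the membrane, at an adjusted p under 0.05; the filter and the estimate of spread came from the model of all 12 footprint libraries. It held 2402 of 11065 features (21.7%), with a median of 1.32 CPM in the 4 cytosol libraries, beside 20.7 CPM for the other features. Such features could pass the filter through the membrane libraries and had few cytosol counts to lose. Of the 277 lower calls 10 (3.61%) were in the class, and of the 165 higher calls 50 (30.3%). The share among the lower calls less that of all tested features was -18.1 percentage points, but -3.19 when the filter and the model used the 4 cytosol libraries alone. The share among the higher calls fell below that of all features after removal of the trend along coding length and without WT cytosol library b.

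UFM1-KO differs from UFSP2-KO in the step of the pathway that was removed, but each line is also a separate Cas9 clone. That step therefore cannot be told apart from other differences between the 2 clones. The cytosol libraries of the 2 lines can be compared without the WT libraries. Between them 1331 of 11065 features (12%) were called, 686 (6.2%) with more footprints in UFSP2-KO and 645 (5.83%) with fewer, and 2854 (25.8%) had an unadjusted p under 0.05. Scaling by library size alone moved the share of higher calls from 51.5% to 35.1%, with a shift of -0.136 in the median of all features. Without UFSP2-KO library b 677 were called, without UFM1-KO library b 785, without UFM1-KO library a 871, and DESeq2 called 752. The 4 transcripts with the largest changes from WT were chosen on the same UFSP2-KO libraries, so their direction here is no independent support, and their values are given as a description. ENST00000371697.3 had 0.686 and 0 CPM in UFM1-KO cytosol and ENST00000311208.11 had 1.37 and 1.51 CPM, both within the range of the WT libraries. UFSP2-KO less UFM1-KO came to 7.22 (SE 0.63) for the first and 4.32 (SE 0.51) for the second. ENST00000457894.4 had 70.6 and 38.8 CPM in UFM1-KO cytosol, where UFSP2-KO had no count. ENST00000503431.4 had 914 and 999 CPM in UFM1-KO, above both WT libraries, and UFSP2-KO less UFM1-KO was -8.14 (SE 0.39). UFM1-KO against WT gave 94 calls (0.85%) in the cytosol. That comparison and the one of UFSP2-KO against WT share the WT libraries, so their calls were not set against each other.

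A smaller set of calls was kept under every setting tried. With each of the 4 libraries left out in turn, 21 of the 165 higher calls (12.7%) and 52 of the 277 lower calls (18.8%) were called every time. Under all 12 alternatives 20 higher (12.1%) and 51 lower (18.4%) calls were kept. Their median log2 change was 1.31 and -2.11. In the membrane fraction, 19 of 20 and 49 of 51 were called the same way, beside 5.24% and 5.89% of all tested features. In mRNA, 15 of 20 and 35 of 50 with a value were called the same way, beside 2.74% and 4.88%. The kept calls had median levels of 117 and 73.3 CPM, beside 14 CPM over all features, and calls were more frequent at high levels. Their median coding lengths were 416.5 and 380 codons, beside 455 over all features. All 4 transcripts named for the largest changes belong to this set, though they were chosen for large changes in these same libraries. Most of the 442 calls were lost under at least 1 setting.

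**Figure D5:**
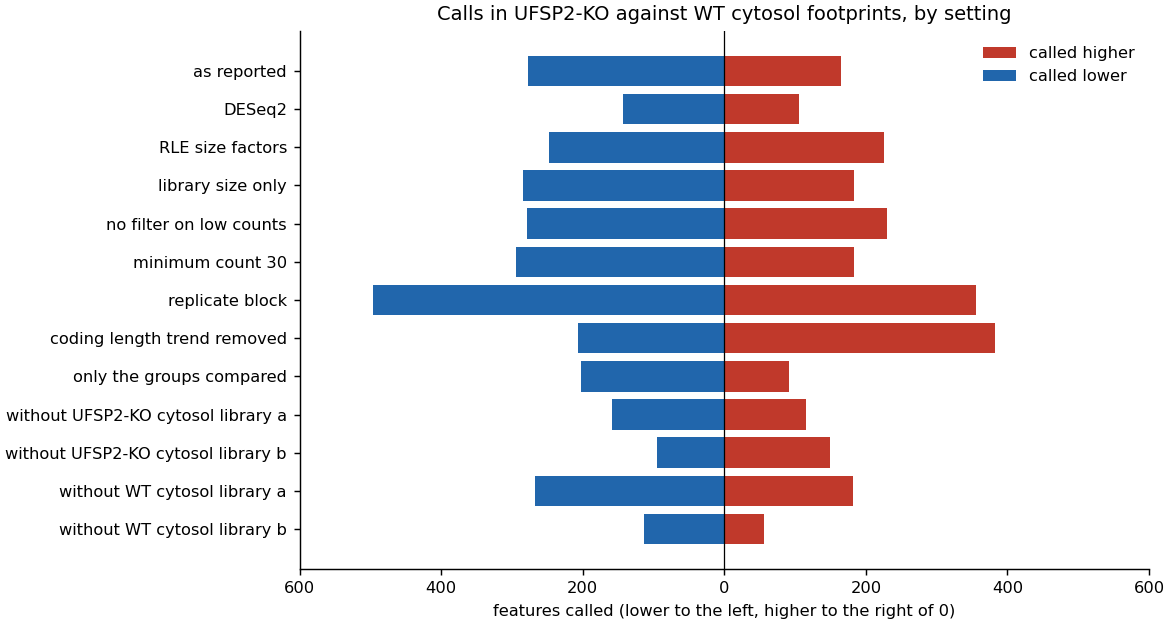
Number of features called lower (to the left of 0) and higher (to the right of 0) between UFSP2-KO and WT cytosol footprints under the main test and each alternative setting (y axis). The calls range from 170 without WT library b to 852 with the letters a and b as a block, beside 442 in the main test.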

How the data were processed

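The deposited tables hold raw counts per versioned Ensembl transcript, with no header, and a length, taken here as codons of coding sequence (1 larger for mRNA). Whether that length covers the full coding sequence is not stated. Per the submitters' processing notes, the aligner was TopHat2 2.1.1 and the build GRCh38. The counting program is not given in the sources used here. Entries with identical counts in all libraries of an assay were merged, so 21223 of 26679 footprint entries with a count became 14377 features. Assays were joined by transcript ID without its version (25605 transcripts).

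Counts were tested across all features in R 4.3.3 with edgeR 4.0.16 (filterByExpr minimum count 10, TMM, quasi-likelihood test, 1 coefficient per group) in models of the 12 footprint, 6 mRNA and all 18 libraries. SEs were computed from log2 change and F. DESeq2 1.42.0 was an alternative. The script was tested on simulated data. The call threshold was a Benjamini-Hochberg adjusted p under 0.05.

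The comparison, lists and tests were chosen with earlier results of these data known. The named transcripts are the 2 with the largest rise and the 2 with the largest fall among calls of at least 10 CPM whose groups did not overlap, plus each call of a difference between readouts. The plan had assumed gene names and 12 each way; because no table paired the IDs with genes, 22 gene lists, including cell type markers, were not tested.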

Additional observations from a re-analysis of the deposited data

Results flagged for a closer look

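Transcripts whose UFSP2-KO change in cytosol footprints differed from their change in another readout, by a test of that difference, are listed here with no weighing of causes. For ENST00000544848.2 the log2 change in cytosol footprints exceeded that in mRNA by 7.27, and footprint counts in UFSP2-KO stayed near those of WT where its mRNA had 2 and 0 counts. In membrane footprints this transcript had 65 and 60.2 CPM in WT and 76.1 and 73.6 CPM in UFSP2-KO, so both fractions held footprints on it. For ENST00000616365.1 the log2 change in cytosol footprints exceeded that in mRNA by 3.16, and its membrane footprints were at 329 and 373 CPM in WT, against 52.8 and 40.6 CPM in UFSP2-KO. For ENST00000301244.10 the log2 change in the cytosol exceeded that in the membrane fraction by 5.2, on 9, 14, 8 and 5 cytosol counts, and its mRNA fell by 4.12 on the log2 scale. With 2 libraries a group, single libraries were not tested as outliers.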

How the results depend on the processing

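The number of features called between UFSP2-KO and WT cytosol was 442 in the main test, 249 with DESeq2, 294 with only the 4 compared libraries in the model, 852 with the letters a and b as a replicate block, and 170 to 449 with a library left out: 274 without UFSP2-KO library a, 245 without UFSP2-KO library b, 170 without WT library b and 449 without WT library a. For the change in cytosol footprints less that in mRNA it was 2, with 12 by DESeq2, 17 without a filter on low counts, 5 with the replicate block and 2 to 16 with a library left out (16 without WT mRNA library a, 12 without UFSP2-KO cytosol library b). For cytosol less membrane it was 1, with 2 by DESeq2, 7 without a filter, 6 with the replicate block and 0 to 9 with a library left out (0 without UFSP2-KO cytosol library a or WT cytosol library b, 9 without WT cytosol library a). For UFSP2-KO against UFM1-KO it was 1331, with 752 by DESeq2, and 677 to 1011 with a library left out, lowest without UFSP2-KO library b. Only 2 letters are shared and the labels do not say that they pair libraries: the a less b differences of WT and UFSP2-KO cytosol correlated at 0.33 across features, and those of all pairs of footprint groups at 0.05 to 0.33. The median log2 coding length of the higher calls less that of all features was 0.0376 and reversed to -0.0701 with DESeq2, -0.138 with the length trend removed and -0.0162 with only the compared libraries, and ran from -0.49 to 0.139 with a library left out. Their share in the membrane class, 8.59 percentage points above that of all features, was -1.81 with the length trend removed and -8.71 to 35.1 with a library left out. That of the lower calls, -18.1 points, was -3.19 with only the compared libraries. The causes were not tested. The fit with 1 feature a gene and the medians of gene lists were not run. Library depth limits the cytosol values most in both libraries marked a.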
